A study of Mus musculus with 16 samples.

Results

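The comparison is between kidneys of mice that breathed low oxygen before a cisplatin injection and kidneys of mice that received cisplatin with no preconditioning. It was defined by the preconditioning and injection labels, which put 4 libraries in the hypoxia group (HP_cisplatin) and 4 in the group of cisplatin alone (BL_cisplatin), 8 of the 16 libraries in the series. All 16 are total RNA from perfused kidneys of C57BL/6 mice, a common inbred strain, aged 20 weeks and harvested 72 h after an intraperitoneal injection. Hypoxia was given for 2, 4 and 8 h on 3 consecutive days and ended at least 1 h before the injection. The other 8 libraries are 4 from mice without preconditioning injected with saline of 0.9% (BL_vehicle) and 4 from mice under calorie restriction for 4 weeks before cisplatin (CR_cisplatin). No group used here received hypoxia and saline, so what the hypoxia exposures did by themselves to the 72 h transcriptome cannot be read from these libraries. The labels do not state the cisplatin dose or the oxygen level, and they do not say that the libraries of a group came from separate animals. P-values therefore measure the spread between these samples, which may in part be technical.

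Cisplatin is a platinum drug used against tumours. Cells of the proximal tubule, the nephron segment that reclaims most filtered sodium, phosphate, glucose, amino acids and protein, take it up from the blood side by organic cation and copper transporters, and platinum bound to DNA activates p53 and cell death programmes. Injured tubule cells lose their transporters and oxidative metabolism and turn on injury genes such as Havcr1 and Lcn2. Low oxygen stabilises the hypoxia-inducible factors (HIF), which induce genes of glycolysis, angiogenesis, erythropoiesis and pH control, and short exposures to hypoxia before an insult are studied as a way to protect the kidney.

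The 4 hypoxia libraries spread far more widely than those of any other group, and 2 features of them bear on every result. The standard deviation of log2(TPM + 1) was larger in HP_cisplatin than in BL_cisplatin for 11364 of 15014 genes (75.7%), and its median over genes was 0.236 in HP_cisplatin against 0.128 in BL_cisplatin, 0.0963 in BL_vehicle and 0.0889 in CR_cisplatin. The unit, TPM, corrects reads for gene length and gives each library the same total. On a line in log2(TPM + 1) from the vehicle mean (0) to the mean of cisplatin alone (1), HP_cisplatin 1 to 4 lay at 0.956, 0.414, 0.658 and 0.0390. HP_cisplatin 1 was inside the range of the 4 cisplatin-alone libraries for 57.4% of genes, and HP_cisplatin 4 was inside the range of the 4 vehicle libraries for 51.9%. HP_cisplatin 4 was also the library closest to a library of another group. The standard deviation of its log2 differences from CR_cisplatin 4 was 0.0802, the lowest of all 120 pairs, with 0.137 for the next pair, which were libraries of 1 group. Over 5010 genes of low to moderate read number, the variance between HP_cisplatin 4 and CR_cisplatin 4 was 1.41 times that of counting alone, against at least 3.71 for the other pairs. These libraries carry different labels and no label links them. Whether HP_cisplatin 4 is a hypoxia sample independent of CR_cisplatin 4, whether both come from 1 kidney, or whether 1 of them has the wrong label was not tested. Each group mean, count and call that includes HP_cisplatin 4 takes its label as given. List counts are therefore given with and without HP_cisplatin 4, and so is each gene below whose log2 difference moves by over 1.5 times or changes its side of the threshold without it; for the other genes described with a test, both stayed within these bounds.

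Other facts of the whole series touch the results as follows. Depth was about 54194300 to 69010100 reads per library, so that 1 TPM in a gene of 2000 bases stood for 71.0 to 83.4 reads. All BL_cisplatin libraries carry 1 title code (K002000053) and all HP_cisplatin and BL_vehicle libraries another (K002000059), so code and preconditioning cannot be told apart in this comparison. The 2 ends of the line from vehicle to cisplatin alone differ in code as well. Positions on it and closeness to vehicle therefore have the same limit. Of 23 marker genes of kidney cell types, 22 were at 1 TPM or more in all 16 libraries, the exception being the anion exchanger Slc4a1. The summed TPM of the adipocyte markers Adipoq and Plin1 was 0.304 to 30.6 in HP_cisplatin and 0.331 to 41.8 in BL_cisplatin, high in HP_cisplatin 2 and 4 and in BL_cisplatin 4. The part of this in the results was not tested. The adrenal marker Cyp11b1 was listed at 0 in every library, and Cyp11a1 at 0.0334 TPM or less. A further adrenal marker, Star, was at 0.547 to 1.08 TPM in HP_cisplatin and 0.839 to 1.32 TPM in BL_cisplatin.

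Genes were kept that reached 1 TPM in 4 or more of the 16 libraries, 15014 in all. Of these, 2455 were higher after hypoxia and cisplatin than after cisplatin alone (16.4%) and 1965 were lower (13.1%), by limma over all libraries at a Benjamini-Hochberg adjusted p under 0.05. The changes past 2-fold were 449 rises (2.99%) and 222 falls (1.48%). All 4 hypoxia libraries lay above all 4 of cisplatin alone for 963 genes (6.41%) and below them for 1362 (9.07%). These calls rest on a spread shared by the 4 groups, which is smaller than that of the hypoxia libraries. With a weight per group the calls were 1310 rises (8.73%) and 758 falls (5.05%). TPM was also rescaled after dropping mitochondrial genes, red blood cell genes and the 10 most abundant others. Of the 14970 genes left, 2008 rose and 3731 fell, with 797 above and 2362 below without overlap. The balance of rises and falls thus depended on the scaling. Fitted to the 8 libraries of the comparison alone, limma called 0 genes, with 4273 (28.5%) at an unadjusted p under 0.05 and 0.106 as the lowest adjusted p. The 2-group fit was repeated without each of its 8 libraries in turn. It called 4214 genes without HP_cisplatin 1, 1 without HP_cisplatin 4, and 0 without any of the other 6 (2694 to 3881 at an unadjusted p under 0.05). In the fit over all groups, 7156 genes (47.7%) were called without HP_cisplatin 1 and 2210 without HP_cisplatin 2. Without HP_cisplatin 4 there were 1834 rises (12.2%) and 1049 falls (6.99%). Other counts were 2667 without BL_cisplatin 2 and 2369 without BL_cisplatin 3. The calls below are from the fit over all 16 libraries. Since the lists were chosen with earlier results of these data known, list counts stand beside the shares given here and carry no test of their own. Where the count of a list moved by over 1.5 times with 1 library left out, such libraries are named with the count, though not all where several do so. In whole tissue, fewer cells of a type and less RNA per cell cannot be told apart.

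**Figure D1:**
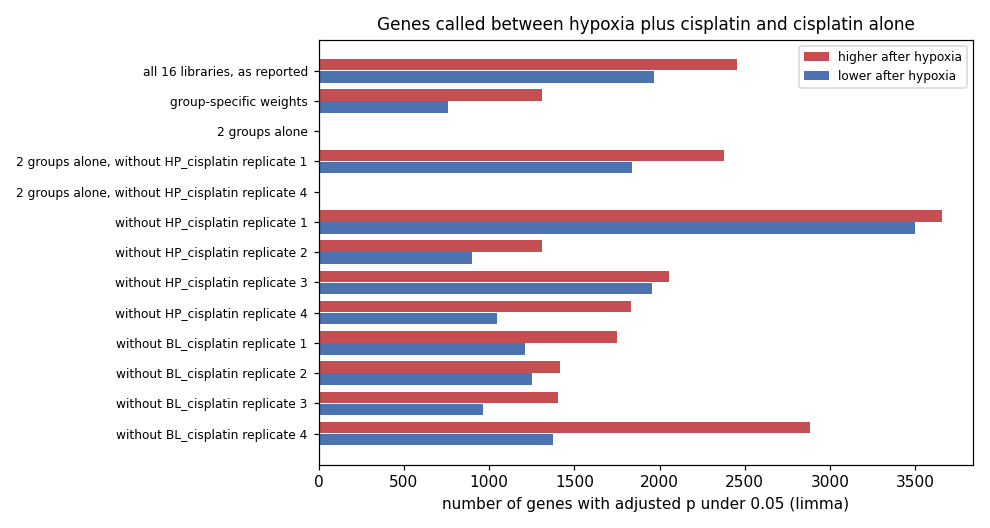
Number of genes with an adjusted p under 0.05 (limma, horizontal axis) that were higher or lower after hypoxia and cisplatin than after cisplatin alone, for the fit over all 16 libraries and for fits with group weights, of the 2 groups alone, or without 1 library. The counts run from 0 in the 2 groups alone to 3658 rises (24.4%) and 3498 falls (23.3%) without HP_cisplatin 1.

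Genes of the proximal tubule rose in large numbers. Of 26 solute transporters 22 rose and 0 fell (1 fell without HP_cisplatin 1), with a median log2 difference of 1.62 over the 26, and 1.27 and 20 rises without HP_cisplatin 4. Over all genes tested the median was -0.017. Of the 26 transporters, 9 were free of overlap. Slc13a3 (chr2:165405028-165473230), the sodium-dicarboxylate cotransporter, had 66.8, 179, 94.1 and 156 TPM in HP_cisplatin 1 to 4 and 34, 20.2, 17.8 and 30.8 TPM in BL_cisplatin 1 to 4. All hypoxia libraries were above all libraries of cisplatin alone, and 2 of them were within or above the vehicle range of 127 to 167 TPM (log2 difference 2.17 ± 0.27 (SE), adjusted p = 0.00182; without HP_cisplatin 4, 2.02, adjusted p = 0.00392). Slc22a6, the organic anion transporter OAT1, stood at 50.7, 199, 106 and 282 TPM after hypoxia and at 29.4, 22.3, 19.5 and 22.3 TPM after cisplatin alone, again without overlap (2.46 ± 0.37 (SE), adjusted p = 0.00366, and without HP_cisplatin 4, 2.10, adjusted p = 0.00496). Its relative Slc22a8 (OAT3) had 5.02, 59.1, 13.2 and 68.3 TPM against 1.98 to 3.46 TPM (2.66 ± 0.57 (SE), adjusted p = 0.00743, and without HP_cisplatin 4, 2.16, adjusted p = 0.0162). Slc9a3, the sodium-hydrogen exchanger NHE3, had 17.9, 27.6, 28.3 and 33.8 TPM against 8.78 to 14.5 TPM (1.22 ± 0.17 (SE), adjusted p = 0.00316, and without HP_cisplatin 4, 1.10, adjusted p = 0.00549). HP_cisplatin 1 was the lowest hypoxia library for each of these 4 genes. Slc34a1, the sodium-phosphate cotransporter NaPi-IIa, showed how far apart the libraries were: 23.3, 754, 170.0 and 1509 TPM, against 18.2, 18.2, 22.5 and 30.2 TPM after cisplatin alone and 1580.1 to 2173 TPM after vehicle. HP_cisplatin 1 was within the range of cisplatin alone and HP_cisplatin 4 just below vehicle, and the mean rise was 3.52 ± 0.87 (SE), adjusted p = 0.0119 (without HP_cisplatin 4, 2.68, adjusted p = 0.0274). Slc22a30, an organic anion transporter whose reads may be shared with near-identical neighbours of its family, had 1.8, 21, 12.6 and 88.6 TPM against 0.659 to 1.65 TPM (3.01 ± 0.69 (SE), adjusted p = 0.00903).

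The uptake machinery for filtered protein rose with the transporters. Among 17 genes of endocytosis and the brush border 14 rose and 0 fell, with 7 free of overlap and a median of 1.37; 11 rose without HP_cisplatin 4, and 1 fell without HP_cisplatin 1 or BL_cisplatin 4. Lrp2, which encodes the scavenger receptor megalin, was at 77.7, 285, 159.8 and 502 TPM in the hypoxia libraries and at 53.6, 41.6, 42.1 and 67.9 TPM after cisplatin alone (2.01 ± 0.39 (SE), adjusted p = 0.00565, and without HP_cisplatin 4, 1.58, adjusted p = 0.00843). Its partner cubilin, Cubn, had 26.5, 95.7, 71.6 and 91.9 TPM against 14.9 to 22.9 TPM (1.69 ± 0.30 (SE), adjusted p = 0.00472, and without HP_cisplatin 4, 1.52, adjusted p = 0.00978). Amn, the membrane anchor of cubilin, rose by 0.99 ± 0.18 (SE), adjusted p = 0.00526, and Pdzk1, a scaffold of brush border transporters, by 1.48 ± 0.27 (SE), adjusted p = 0.00518. Anpep, the brush border peptidase aminopeptidase N, had 31.4, 54.2, 69 and 53.5 TPM against 16.3 to 25.7 TPM, and HP_cisplatin 2 to 4 were above the vehicle range of 34.3 to 39.9 TPM (1.23 ± 0.20 (SE), adjusted p = 0.00379).

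Genes of the straight segment (S3), the part of the tubule in the outer medulla, rose in 15 of 18 cases and fell in 0, with a median of 1.66, or 0.97 and 11 rises without HP_cisplatin 4. The rises numbered 6 without BL_cisplatin 2 or 3 and 16 without HP_cisplatin 1. Only 4 of the 18 were free of overlap. Akr1c21, a steroid dehydrogenase, had 13, 229, 91.2 and 518 TPM against 8.43, 5.69, 5.62 and 14.8 TPM, with HP_cisplatin 1 inside the range of cisplatin alone (3.63 ± 0.75 (SE), adjusted p = 0.00695, and without HP_cisplatin 4, 2.89, adjusted p = 0.0129). Slc7a13, an amino acid transporter of the same segment, behaved otherwise. It was at 2.14, 24.2, 10.6 and 349.9 TPM, so that HP_cisplatin 4 was above the vehicle range of 277 to 321 TPM and HP_cisplatin 1 lay below all libraries of cisplatin alone (2.21 to 2.78 TPM). Its call (2.78 ± 0.93 (SE), adjusted p = 0.0383, and without HP_cisplatin 4, 1.49, adjusted p = 0.0371) was lost without HP_cisplatin 2 or without any 1 of the 4 BL_cisplatin libraries (adjusted p up to 0.0822).

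Of 11 transcription factors of the proximal tubule 6 rose and 0 fell, with 7 rises without HP_cisplatin 4 and 3 without HP_cisplatin 2. Of the 11, 3 were free of overlap. Hnf4a, the nuclear receptor that drives much of the mature tubule programme, was at 58.1, 143, 102 and 163 TPM against 36.8 to 52 TPM after cisplatin alone and 175 to 199.7 TPM after vehicle (1.22 ± 0.23 (SE), adjusted p = 0.0054). The hypoxia libraries did not overlap those of cisplatin alone. Maf rose by 1.05 ± 0.27 (SE), adjusted p = 0.0136.

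**Figure D2:**
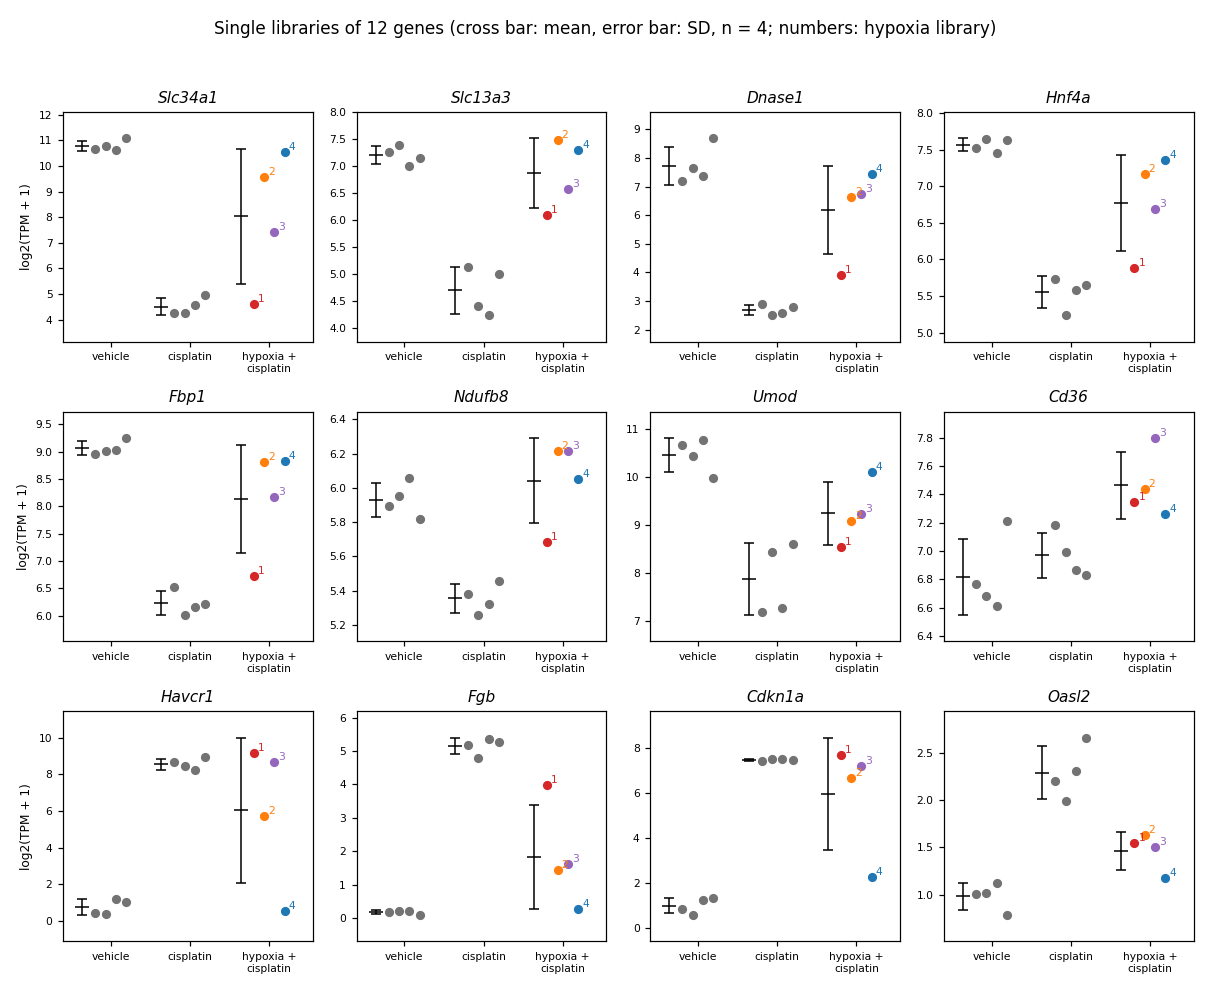
log2(TPM + 1) of 12 genes in the 4 libraries each of vehicle, cisplatin alone, and hypoxia and cisplatin; points are libraries, numbers mark HP_cisplatin 1 to 4, and the bars at the left of each group are the mean and SD (n = 4). For Slc34a1 the hypoxia libraries run from 23.3 to 1509 TPM, and for Dnase1, Slc13a3, Fbp1 and Ndufb8 all 4 lie above cisplatin alone.

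Mitochondrial metabolism moved with the tubule genes, and the genes of the respiratory chain encoded in the nucleus rose nearly without exception. Of 40 subunits 39 rose, 0 fell and 28 were free of overlap, at a median of 0.65; the 39 rises were also counted without HP_cisplatin 4 (median 0.53) and 38 with group weights. Ndufb8, a subunit of complex I, was at 50.5, 73.3, 73.1 and 65.3 TPM after hypoxia and at 40.7, 37.3, 39 and 42.9 TPM after cisplatin alone (0.69 ± 0.10 (SE), adjusted p = 0.00366). HP_cisplatin 1 was below the vehicle range of 55.4 to 65.6 TPM, HP_cisplatin 4 was inside it, and HP_cisplatin 2 and 3 were above it. Ndufa6, another complex I subunit, had 154, 250.3, 214 and 231 TPM against 121 to 130.2 TPM (0.73 ± 0.12 (SE), adjusted p = 0.00379). The 12 measured protein genes of the mitochondrial genome had few calls: 1 rose and 0 fell, with a median of 0.25, and 6 rose without HP_cisplatin 1 but 0 without HP_cisplatin 4. That gene, mt-Nd1, had 3483, 5576, 4888 and 7178 TPM against 3420.5 to 3777 TPM (0.51 ± 0.16 (SE), adjusted p = 0.0288, and without HP_cisplatin 4, 0.35, adjusted p = 0.0545), and it lost its call without HP_cisplatin 2 or 4 or BL_cisplatin 1, 2 or 3 (adjusted p up to 0.0784). The tricarboxylic acid cycle had 16 rises and 0 falls among 19 genes, of which 4 were free of overlap. There were 13 rises with group weights and 10 without HP_cisplatin 4, and also 10 without HP_cisplatin 2 or BL_cisplatin 2 or 3. An example is Suclg1, a subunit of succinyl-CoA ligase, with 27.6, 49.4, 44 and 50.6 TPM against 20.1 to 27.4 TPM (0.84 ± 0.15 (SE), adjusted p = 0.00505).

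Pathways that the proximal tubule shares with the liver followed. Of 9 genes of gluconeogenesis 7 rose and 0 fell, with 6 rises without HP_cisplatin 4 and 4 without HP_cisplatin 2 or BL_cisplatin 2 or 3. Fbp1, fructose-1,6-bisphosphatase, had 104, 448, 285 and 455 TPM against 63.8 to 91.4 TPM (1.90 ± 0.34 (SE), adjusted p = 0.00482). Slc37a4, the glucose-6-phosphate transporter, had 27.8, 132, 106 and 123 TPM, and HP_cisplatin 1, alone of the 4, was within the range of cisplatin alone, 18.6 to 31.3 TPM. Of 19 genes of amino acid catabolism 18 rose and 0 fell, with a median of 1.67, and 16 rose without HP_cisplatin 4 (median 1.31). Hgd, which breaks down homogentisate in tyrosine degradation, had 35.7, 111, 77.2 and 105 TPM against 23.8 to 31.8 TPM (1.40 ± 0.26 (SE), adjusted p = 0.00508), and Haao, an enzyme of the route from tryptophan to NAD, had 18.2, 77.7, 58.7 and 119 TPM against 8.11 to 17.4 TPM (2.13 ± 0.41 (SE), adjusted p = 0.0054). Of 10 genes of transsulfuration and hydrogen sulfide 6 rose and 0 fell, as they did without HP_cisplatin 4, and without HP_cisplatin 1 there was 1 fall. Cth, cystathionine gamma-lyase, which makes cysteine and hydrogen sulfide, had 20.1, 60, 55 and 46.3 TPM against 12.2 to 17.4 TPM, and HP_cisplatin 2 and 3 were above the vehicle range of 44.2 to 54.1 TPM (1.47 ± 0.25 (SE), adjusted p = 0.00432). Tst, a sulfurtransferase, rose by 1.13 ± 0.21 (SE), adjusted p = 0.0054.

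Fatty acid oxidation gave 14 rises and 1 fall among 24 genes, with a median of 0.37, and 13 rises and 0 falls without HP_cisplatin 4; 7 rose and 0 fell with group weights, and likewise without HP_cisplatin 2 or BL_cisplatin 2. Acadm, the medium-chain acyl-CoA dehydrogenase, was at 57.1, 137, 149 and 189.7 TPM against 38.3 to 53.8 TPM (1.35 ± 0.26 (SE), adjusted p = 0.00564), and its short-chain relative Acads at 37.7, 59, 52.2 and 69.8 TPM against 30.7 to 35.1 TPM (0.69 ± 0.14 (SE), adjusted p = 0.00575). Ketone body genes had 4 rises and 0 falls among 7, among them Acat1 (1.55) and Bdh1 (1.63), whose products handle acetoacetate and 3-hydroxybutyrate; their median was 0.33, and 0.87 and 4 rises without HP_cisplatin 4. Among 21 genes of sterol and fatty acid synthesis 7 rose and 0 fell; 5 rose without HP_cisplatin 4, 2 without HP_cisplatin 2 or BL_cisplatin 2 or 3, and 10 without HP_cisplatin 1. Examples are Hmgcs1 (1.18 ± 0.23 (SE), adjusted p = 0.00593) and Mvd (1.28 ± 0.26 (SE), adjusted p = 0.00682), both of the mevalonate pathway. Of 16 genes of NAD synthesis and sirtuins 11 rose and 0 fell, with 8 rises without HP_cisplatin 4 and 7 without HP_cisplatin 2 or BL_cisplatin 3 (1 fall without HP_cisplatin 1). Nampt, the enzyme that recycles nicotinamide into NAD, was at 50.1, 65.4, 77 and 37.1 TPM in the hypoxia libraries, 26.8, 29.5, 23.5 and 37.2 TPM in those of cisplatin alone and 38.1 to 42.5 TPM after vehicle. HP_cisplatin 1 to 3 were above every library of both other groups and HP_cisplatin 4 was not (0.92 ± 0.18 (SE), adjusted p = 0.00575; without HP_cisplatin 4, 1.11, adjusted p = 0.00336). Naprt, which makes NAD from nicotinic acid, had 8.41, 22.1, 15.5 and 15.8 TPM against 6.86 to 8.49 TPM (0.91 ± 0.19 (SE), adjusted p = 0.00696).

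Antioxidant enzymes were among the genes that rose without overlap. Cat, catalase, had 199.5, 359, 281 and 333 TPM against 136 to 168 TPM (0.91 ± 0.15 (SE), adjusted p = 0.00379), and Gpx4, the glutathione peroxidase that reduces lipid hydroperoxides and restrains ferroptosis, had 169, 267, 225 and 190.1 TPM against 125 to 140.5 TPM (0.64 ± 0.11 (SE), adjusted p = 0.00467). Gpx4 is 1 of 13 listed genes of ferroptosis and iron handling, of which 2 rose and 4 fell, at a median of -0.20. For that list there were 2 rises and 1 fall without HP_cisplatin 4, and 3 and 6 without HP_cisplatin 1. Targets of the stress factor NRF2, Cat among them, went both ways, with 2 rises and 2 falls among 19. These shares are below the 16.4% and 13.1% over all genes. Without HP_cisplatin 4 there were 2 and 0, and without HP_cisplatin 1 there were 2 and 8. The falls in the fit over all libraries were Srxn1, sulfiredoxin, at 317, 79.4, 147 and 17.5 TPM against 190.5 to 369.8 TPM (-1.73 ± 0.58 (SE), adjusted p = 0.0393, and without HP_cisplatin 4, -0.96, adjusted p = 0.0609), and Hmox1, haem oxygenase 1, at 115, 26.8, 58.2 and 11.9 TPM against 92.1 to 99.8 TPM (-1.30 ± 0.46 (SE), adjusted p = 0.0454, and without HP_cisplatin 4, -0.76, adjusted p = 0.111). Neither fall was called without HP_cisplatin 2 or 4 or BL_cisplatin 1, 2 or 3, and Hmox1 was not called without BL_cisplatin 4 either (adjusted p up to 0.0906 and 0.121). HP_cisplatin 1 was inside the range of cisplatin alone for Srxn1 and above it for Hmox1.

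Beyond the proximal tubule, the counts differed between the lists of segments. Of 12 genes of the thick ascending limb 8 rose and 0 fell, and the 8 rises were also counted without HP_cisplatin 4. Of the 12, 2 were free of overlap. Umod, which encodes uromodulin, the most abundant urinary protein, was at 372, 547, 603 and 1106 TPM against 146, 349.6, 154 and 389 TPM after cisplatin alone (1.36 ± 0.36 (SE), adjusted p = 0.0147; 0.0813 with group weights). The libraries of cisplatin alone themselves spread widely, and HP_cisplatin 1 lay between them. Cldn16, the claudin of magnesium reabsorption, had 1.86, 6.89, 4.07 and 4.01 TPM against 0.535 to 1.7 TPM without overlap (1.38 ± 0.24 (SE), adjusted p = 0.00476), and Egf, the growth factor made in the distal nephron, had 5.48, 29, 15.4 and 171 TPM against 2.37 to 5.4 TPM, with HP_cisplatin 4 alone inside the vehicle range of 155 to 208 TPM (2.60 ± 0.67 (SE), adjusted p = 0.0138, and without HP_cisplatin 4, 1.72, adjusted p = 0.0123). For 11 genes of the distal convoluted tubule there were 8 rises and 0 falls, but 2 rises without HP_cisplatin 4, without HP_cisplatin 2 or without BL_cisplatin 3. Only 1 of the 11 was free of overlap. Slc12a3, the thiazide-sensitive sodium-chloride cotransporter, had 13.6, 61.1, 53.5 and 254 TPM against 7.46 to 14.2 TPM (2.45 ± 0.56 (SE), adjusted p = 0.00953), and Fxyd2, a regulator of the sodium pump, had 621, 1083, 853 and 1659.7 TPM against 416 to 539.6 TPM (1.02 ± 0.21 (SE), adjusted p = 0.00696). Collecting duct lists had fewer calls, to be read beside the 16.4% of rises and 13.1% of falls over all genes. Principal cell genes had 2 rises and 1 fall among 9, and intercalated cell genes 4 rises and 1 fall among 12. Each had 1 rise without HP_cisplatin 4. With group weights principal cell genes had 0 rises and 0 falls, and intercalated cell genes 1 and 0. Principal cell genes had 0 rises without HP_cisplatin 2 or BL_cisplatin 3 and 5 without HP_cisplatin 1, and intercalated cell genes had 1 without HP_cisplatin 2 or 3 or BL_cisplatin 1, 2 or 3. Scnn1g, a subunit of the epithelial sodium channel, rose by 0.91 ± 0.25 (SE), adjusted p = 0.0189, a call lost without HP_cisplatin 2 or BL_cisplatin 3 (adjusted p up to 0.0628), and Rhcg, an ammonia channel, by 1.65 ± 0.37 (SE), adjusted p = 0.00869. Podocyte genes had 1 rise and 2 falls among 12 and endothelial genes 0 and 2 among 14, beside the same shares over all genes. Each list had 0 and 1 without HP_cisplatin 4. Without HP_cisplatin 1 they had 3 and 1, and 4 and 2, in a fit in which 24.4% of all genes rose and 23.3% fell.

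Injury genes of the tubule fell in 14 of 20 cases and rose in 0, with a median of -1.40, and 11 of the 20 lay below without overlap. Without HP_cisplatin 4 there were 10 falls and a median of -0.95. The falls numbered 7 without HP_cisplatin 2 and 19 without HP_cisplatin 1. The most used markers varied widely within the hypoxia group. Havcr1, which encodes KIM-1, a phosphatidylserine receptor on injured tubule cells, was at 582, 51, 409 and 0.473 TPM after hypoxia and at 400.0, 344, 298 and 489 TPM after cisplatin alone. HP_cisplatin 1 exceeded every library of cisplatin alone, HP_cisplatin 3 was inside their range, and HP_cisplatin 4 was inside the vehicle range of 0.306 to 1.33 TPM; the difference of -2.53 ± 1.30 (SE), adjusted p = 0.15, and without HP_cisplatin 4, -0.70, adjusted p = 0.435, did not pass. Without HP_cisplatin 1 it was -3.58, adjusted p = 0.0292. Krt20, a keratin, had 446, 26.9, 162 and 0.158 TPM against 369 to 429 TPM (-3.38 ± 1.24 (SE), adjusted p = 0.0535, and without HP_cisplatin 4, -1.68, adjusted p = 0.0791). Lcn2, which encodes the iron-siderophore binding protein NGAL, had 199, 28.4, 101 and 0.611 TPM against 279.8, 305, 292 and 243 TPM, with no overlap (-3.16 ± 1.01 (SE), adjusted p = 0.033; without HP_cisplatin 4, -1.73, adjusted p = 0.0233). The call of Lcn2 was lost without HP_cisplatin 2 or any 1 of the BL_cisplatin libraries (adjusted p up to 0.0736). Sprr2f, a small proline-rich protein of stressed epithelium, had 19.9, 0.043, 3.74 and 0.0418 TPM against 24.3 to 53.8 TPM and was listed at 0 in all vehicle libraries (-3.65 ± 0.69 (SE), adjusted p = 0.00534). HP_cisplatin 2 and 4 were near 0 and HP_cisplatin 1 close to the lowest library of cisplatin alone. Clu, the extracellular chaperone clusterin, was at 199, 95.2, 199.97 and 99.1 TPM against 263 to 395 TPM (-1.15 ± 0.24 (SE), adjusted p = 0.00696), and Vim, an intermediate filament protein of dedifferentiated tubule cells, at 15.9, 8.81, 9.18 and 7.58 TPM against 17.1 to 33.7 TPM (-1.03 ± 0.22 (SE), adjusted p = 0.0073).

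The fibrinogen genes fell together, while most other genes of their list were not called. Of 14 genes of the IL-6 family and STAT3 response 4 fell and 0 rose, at a median of -0.47. Fga, Fgb and Fgg were among the 4. Without HP_cisplatin 4 there were 3 falls and a median of -0.19. The falls numbered 2 without HP_cisplatin 2, and there were 1 rise and 7 falls without HP_cisplatin 1. Fga, Fgb and Fgg encode the 3 chains of fibrinogen and lie next to each other on chromosome 3 (GRCm38; chr3:83026076-83033627, chr3:83040141-83049863 and chr3:83007724-83015049); they are textbook acute phase genes of the liver, where STAT3 acts on them downstream of interleukin-6, and are also induced in injured tubules. Fgb was at 14.8, 1.71, 2.05 and 0.214 TPM after hypoxia, 35.5, 26.9, 39.9 and 37.4 TPM after cisplatin alone and 0.0705 to 0.154 TPM after vehicle (-3.33 ± 0.51 (SE), adjusted p = 0.00366; without HP_cisplatin 4, -2.81, adjusted p = 0.00496). Every hypoxia library was below every library of cisplatin alone and every one was above the vehicle range. Fga had 194, 78.9, 104 and 14.8 TPM against 229 to 374 TPM (-2.06 ± 0.57 (SE), adjusted p = 0.0191, and without HP_cisplatin 4, -1.33, adjusted p = 0.0241; 0.0546 with group weights). Fgg had 184, 48.2, 88.5 and 1.34 TPM against 209 to 334 TPM (-2.86 ± 0.91 (SE), adjusted p = 0.0319, and without HP_cisplatin 4, -1.53, adjusted p = 0.0114), a call lost without HP_cisplatin 2 or any 1 of the BL_cisplatin libraries (adjusted p up to 0.0675).

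The stretches upstream of Fga and Fgb are printed because these neighbours moved together; they are from RefSeq tables of build GRCm38.p6, 5′ to 3′ on the strand of the gene, at chr3:83025903-83026075 (plus strand) and chr3:83049864-83050113 (minus strand). They end before the annotated start of the gene, and capitals mark TTCNNNGAA, the palindrome that STAT factors bind, whose reverse complement is the same.
Fga: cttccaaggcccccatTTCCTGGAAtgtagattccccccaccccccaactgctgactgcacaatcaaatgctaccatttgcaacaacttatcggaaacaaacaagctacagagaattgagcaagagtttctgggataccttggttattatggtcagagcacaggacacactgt
Fgb: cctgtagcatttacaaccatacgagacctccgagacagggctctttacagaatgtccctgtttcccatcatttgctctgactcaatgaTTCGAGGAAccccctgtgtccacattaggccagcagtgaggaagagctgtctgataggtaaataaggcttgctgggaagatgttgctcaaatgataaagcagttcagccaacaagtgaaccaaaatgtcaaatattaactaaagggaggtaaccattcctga
Fga and Fgb hold 1 match each in the 250 bases before the RefSeq start, with its first base 234 and 162 bases upstream, and Fgg holds 0 in the same window. Of 32851 promoters of this length in the table, 7.02% hold at least 1. A match describes the letters and not a bound site.

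Other large falls free of overlap were found outside the lists of injury. Cck (chr9:121489824-121495694), the peptide hormone cholecystokinin, was at 0.999, 2.83, 1.55 and 16.6 TPM after hypoxia against 68.6, 42.5, 53.8 and 35.5 TPM after cisplatin alone, while vehicle libraries had 2 to 35.2 TPM (-3.53 ± 0.70 (SE), adjusted p = 0.00593; without HP_cisplatin 4, -4.20, adjusted p = 0.0049). It ran against the usual order: HP_cisplatin 1 was the lowest library and HP_cisplatin 4 the highest of the group. Lrg1, a secreted acute phase glycoprotein, had 57.7, 15.2, 23.7 and 3.11 TPM against 71.2 to 81.1 TPM (-2.13 ± 0.53 (SE), adjusted p = 0.012). The metallothioneins Mt1 and Mt2, which bind zinc, copper and also platinum, had 921, 305, 717 and 57.5 TPM and 569.7, 153, 443 and 14.2 TPM in the hypoxia libraries, against 1053 to 1785 and 771 to 1122 TPM. Mt1 differed by -2.18 ± 0.61 (SE), adjusted p = 0.0193, and without HP_cisplatin 4, -1.35, adjusted p = 0.0142. Mt2 differed by -2.63 ± 0.80 (SE), adjusted p = 0.0263, and without HP_cisplatin 4, -1.51, adjusted p = 0.0163. They are similar in sequence, so reads could be split between them, and both calls were lost without HP_cisplatin 2 or BL_cisplatin 3, that of Mt2 also without BL_cisplatin 1 or 2 (adjusted p up to 0.0511 and 0.0637). Cdh6, a cadherin of the developing proximal tubule, was tight in the hypoxia group, at 1.18, 1.34, 1.06 and 1.24 TPM. After cisplatin alone it was at 2.63, 2.59, 2.71 and 3.56 TPM, with BL_cisplatin 4 apart. Cdh6 differed by -0.81 ± 0.10 (SE), adjusted p = 0.00204, and without HP_cisplatin 4, -0.81, adjusted p = 0.00385. Its hypoxia libraries were at the level of vehicle, 0.877 to 1.53 TPM, including HP_cisplatin 1. Plet1, a surface protein of epithelial progenitors, had 26.8, 15.3, 15.6 and 8.71 TPM against 41.1 to 55.7 TPM (-1.64 ± 0.28 (SE), adjusted p = 0.00432).

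Few targets of p53 were called in the fit over all libraries. Of 20 genes of arrest and feedback 1 rose and 0 fell, at a median of -0.63, with the same counts and a median of -0.036 without HP_cisplatin 4. With group weights 0 were called in either direction. Without HP_cisplatin 1 there were 1 rise and 6 falls, in a fit in which 24.4% of all genes rose and 23.3% fell. None was called without HP_cisplatin 2 or 3 or any 1 of the BL_cisplatin libraries. Cdkn1a, which encodes the cell cycle inhibitor p21, was at 206, 101, 146 and 3.76 TPM after hypoxia, 172, 179, 181 and 177 TPM after cisplatin alone and 0.494 to 1.47 TPM after vehicle. HP_cisplatin 1 was above all libraries of cisplatin alone, HP_cisplatin 2 and 3 were below them but far above vehicle, and HP_cisplatin 4 was above the vehicle range by far less (-1.52 ± 0.86 (SE), adjusted p = 0.184; without HP_cisplatin 4, -0.29, adjusted p = 0.571). Btg2, an antiproliferative gene, had 153, 55.2, 99.1 and 4.94 TPM against 120.5 to 170.0 TPM (-1.63 ± 0.70 (SE), adjusted p = 0.0891, and without HP_cisplatin 4, -0.63, adjusted p = 0.133), and Gdf15, a stress hormone, 148, 53.4, 104 and 3.64 TPM against 98.2 to 147 TPM (-1.43 ± 0.76 (SE), adjusted p = 0.161, and without HP_cisplatin 4, -0.34, adjusted p = 0.458). The gene that rose, Dcxr, encodes a carbonyl reductase of the brush border: 123, 229, 187 and 93 TPM against 90.9 to 101 TPM (0.63 ± 0.21 (SE), adjusted p = 0.0372). Its call was lost without HP_cisplatin 2 or 3 or any 1 of the BL_cisplatin libraries (adjusted p up to 0.11). Of 14 pro-apoptotic targets 1 rose and 3 fell, beside 16.4% of rises and 13.1% of falls over all genes. There were 2 falls without HP_cisplatin 4, and 1 without HP_cisplatin 2 or BL_cisplatin 1, 2 or 3. Without HP_cisplatin 1 there were 8 falls, in a fit in which 23.3% of all genes fell. The rise was Bid, a BH3-only protein (0.59 ± 0.16 (SE), adjusted p = 0.0162), with 0.0527 without HP_cisplatin 2. Pidd1, which links p53 to caspase-2, had 5.22, 3.36, 5.09 and 1.26 TPM against 5.12 to 6.7 TPM (-0.66 ± 0.23 (SE), adjusted p = 0.0479, and without HP_cisplatin 4, -0.34, adjusted p = 0.0619); this call held without HP_cisplatin 1 or 3 but in none of the other 6 fits that leave out a library (adjusted p up to 0.106).

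Among 15 genes of cell death execution 2 rose and 2 fell, shares near the 16.4% of rises and 13.1% of falls over all genes. There were 2 and 1 without HP_cisplatin 4. Without HP_cisplatin 1 there were 3 and 6, in a fit in which 24.4% of all genes rose and 23.3% fell. Ripk3, the kinase of necroptosis, had 2.85, 0.613, 1.51 and 0.22 TPM against 3.48, 3.27, 3.9 and 3.57 TPM, without overlap (-1.12 ± 0.25 (SE), adjusted p = 0.00838; without HP_cisplatin 4, -0.86, adjusted p = 0.015). Its substrate Mlkl, which permeabilises the membrane, had 10.4, 2.72, 5.77 and 1.1 TPM against 8.35 to 10.4 TPM (-1.05 ± 0.35 (SE), adjusted p = 0.0383, and without HP_cisplatin 4, -0.64, adjusted p = 0.0906), a call held without HP_cisplatin 1 or 3 alone of the 8 libraries (adjusted p up to 0.107). Dnase1 (chr16:4036942-4040024), a secreted nuclease, was 1 of the rises and had the largest rise of the genes named here that were free of overlap. It was at 14, 98.3, 106 and 171 TPM after hypoxia and at 6.4, 4.68, 4.99 and 5.96 TPM after cisplatin alone (3.48 ± 0.56 (SE), adjusted p = 0.00379; without HP_cisplatin 4, 3.07, adjusted p = 0.00702). Even HP_cisplatin 1, the hypoxia library nearest to cisplatin alone by its position, stood above the 4 libraries of that group. The other rise was Endog, a mitochondrial nuclease, at 16.7, 39.9, 28.8 and 29.8 TPM against 15.3 to 16.7 TPM (0.73 ± 0.18 (SE), adjusted p = 0.0108). Among 18 genes that repair or tolerate platinum lesions 0 rose and 2 fell, a share near the 13.1% of falls over all genes. Without HP_cisplatin 4 none was called, nor without HP_cisplatin 2 or BL_cisplatin 1 or 4, and without HP_cisplatin 3 there were 4 falls. Ercc1, a subunit of the nuclease that cuts beside platinum adducts, had 35.3, 5.05, 15.1 and 2.58 TPM against 28 to 31.4 TPM (-1.55 ± 0.49 (SE), adjusted p = 0.0302, and without HP_cisplatin 4, -1.03, adjusted p = 0.0771). HP_cisplatin 1 was above cisplatin alone for it, HP_cisplatin 4 was inside the vehicle range of 2.43 to 3.37 TPM, and HP_cisplatin 2 and 3 were between the groups. Whether counting used strand is not given in the sources used here, so reads of a gene that overlaps Ercc1 on the other strand cannot be told apart from its own; its call was lost without HP_cisplatin 2 or 4 or any 1 of the BL_cisplatin libraries (adjusted p up to 0.0934). Of 9 transporters of cisplatin and copper 3 rose and 2 fell, beside 16.4% of rises and 13.1% of falls over all genes. There were 2 and 1 without HP_cisplatin 4 and 1 and 1 without HP_cisplatin 2. Slc22a2 (OCT2), which carries cisplatin into tubule cells, had 28.9, 94.4, 71.3 and 155 TPM against 18.6 to 29.3 TPM (1.64 ± 0.34 (SE), adjusted p = 0.00711). Slc31a1, the copper transporter CTR1, rose by 0.51 ± 0.14 (SE), adjusted p = 0.0191 with overlap, a call lost without HP_cisplatin 2 or BL_cisplatin 2 or 3 (adjusted p up to 0.0566), and the efflux pump Abcc3 fell from 5.47 to 8.95 TPM to 5.35, 1.75, 2.37 and 0.58 TPM (-1.36 ± 0.29 (SE), adjusted p = 0.00771).

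**Figure D3:**
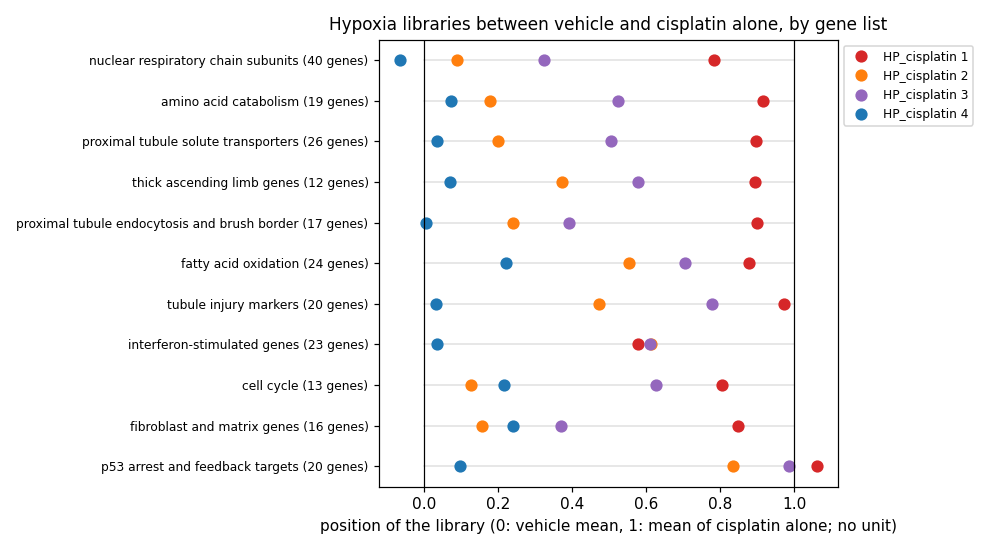
Position of each hypoxia library on the line from the vehicle mean (0) to the mean of cisplatin alone (1) for 11 gene lists. The line is on the log2(TPM + 1) scale. Each point is 1 library, and the number of genes of a list is in brackets. HP_cisplatin 2 and 3 lie at 0.089 and 0.32 for respiratory chain subunits and at 0.84 and 0.99 for p53 targets.

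On the log2(TPM + 1) scale, the lists separated HP_cisplatin 2 and 3 from the other hypoxia libraries. On the same line from vehicle to cisplatin alone, computed per list, HP_cisplatin 1 to 4 were at 0.78, 0.089, 0.32 and -0.066 for nuclear respiratory chain subunits and at 0.90, 0.20, 0.50 and 0.034 for proximal tubule transporters. For tubule injury markers the positions were 0.97, 0.47, 0.78 and 0.033, and for p53 targets of arrest 1.06, 0.84, 0.99 and 0.10. On this scale HP_cisplatin 1 was thus nearer to cisplatin alone and HP_cisplatin 4 to vehicle for each of these 4 lists. HP_cisplatin 2 and 3 were nearer to vehicle for respiration and to cisplatin alone for p53 targets. A library midway in TPM lies nearer to the higher group on this scale, so these contrasts depend in part on it. For Slc34a1, HP_cisplatin 2 had 754 TPM, against means of 22.3 TPM after cisplatin alone and 1787 TPM after vehicle. That is nearer to vehicle on log2(TPM + 1) but nearer to cisplatin alone in TPM. Positions in TPM were not computed. Interferon-stimulated genes made a different pattern, with positions of 0.58, 0.61, 0.61 and 0.035: HP_cisplatin 1, 2 and 3 were at nearly the same place. These positions are descriptions of single libraries and were not tested.

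Interferon-stimulated genes fell in 14 of 23 cases and rose in 0; 13 were free of overlap, the median was -0.48, and 14 falls were also counted without HP_cisplatin 4, but 6 with group weights. Oasl2, a member of the oligoadenylate synthetase family of antiviral proteins, was at 1.93, 2.1, 1.83 and 1.26 TPM after hypoxia, 3.6, 2.98, 3.97 and 5.32 TPM after cisplatin alone and 0.724 to 1.18 TPM after vehicle (-0.83 ± 0.13 (SE), adjusted p = 0.00389; without HP_cisplatin 4, -0.73, adjusted p = 0.00709). Oas1a of the same family had 2.29, 1.94, 1.9 and 1.3 TPM against 2.69 to 4.35 TPM (-0.63 ± 0.13 (SE), adjusted p = 0.00613). Ifit1, which binds foreign RNA, had 2.83, 4.71, 3.7 and 1.95 TPM against 4.94 to 8.2 TPM (-0.87 ± 0.19 (SE), adjusted p = 0.00797). All 4 hypoxia libraries, HP_cisplatin 1 included, were below all 4 of cisplatin alone for these 3 genes, although the levels are low.

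Upstream stretches of these genes are printed because HP_cisplatin 1, the library nearest to cisplatin alone, was low for these genes as well; both are from RefSeq tables of build GRCm38.p6, 5′ to 3′ on the strand of the gene, at chr19:34640639-34640870 (plus strand) and chr5:120907526-120907775 (minus strand). Capitals mark GAAA, any 2 bases and GAAA again, or on the other strand TTTC, any 2 bases and TTTC, the core of the interferon-stimulated response element, and the 2 matches of Oas1a overlap.
Ifit1: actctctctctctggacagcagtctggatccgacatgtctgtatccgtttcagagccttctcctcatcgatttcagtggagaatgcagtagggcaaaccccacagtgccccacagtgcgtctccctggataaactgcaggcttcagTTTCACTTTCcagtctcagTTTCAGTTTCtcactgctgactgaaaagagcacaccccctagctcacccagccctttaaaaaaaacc
Oas1a: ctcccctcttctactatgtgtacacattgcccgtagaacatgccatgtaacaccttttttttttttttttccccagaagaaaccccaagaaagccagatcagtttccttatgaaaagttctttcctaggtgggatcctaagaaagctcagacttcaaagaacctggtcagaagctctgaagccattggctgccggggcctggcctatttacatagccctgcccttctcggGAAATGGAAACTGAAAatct
Of 11 interferon-stimulated genes that fell and have an entry in the table, 6 hold the motif in the 250 bases before the start, and of 7 that did not pass the test 3 do. Among all 32851 promoters 2.98% hold it. Oasl2 holds 0 matches in that window, which says only that these letters are not there.

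Of 16 NF-kB and cytokine genes 2 fell and 0 rose, a share near the 13.1% of falls over all genes. The falls numbered 1 without HP_cisplatin 4, 5 without HP_cisplatin 3 and 11 without HP_cisplatin 1, a fit in which 23.3% of all genes fell. The falls in the fit over all libraries were Cxcl2 and Birc3. Cxcl2, a neutrophil chemoattractant, had 2.93, 0.886, 1.14 and 0.0246 TPM against 4.4, 4.91, 5.23 and 3.87 TPM, without overlap (-1.47 ± 0.27 (SE), adjusted p = 0.00508). Birc3, an inhibitor of apoptosis induced by NF-kB, had 9.92, 5.04, 7.44 and 1.85 TPM against 8.52 to 11.5 TPM (-0.82 ± 0.29 (SE), adjusted p = 0.0441, and without HP_cisplatin 4, -0.44, adjusted p = 0.0646), a call held without HP_cisplatin 1 or 3 alone of the 8 libraries (adjusted p up to 0.0947). Among 11 macrophage and monocyte genes 2 fell and 0 rose, beside 13.1% of falls over all genes. The counts were the same without HP_cisplatin 4, while 2 rose without HP_cisplatin 1 and 3 without BL_cisplatin 4. The falls were Cd14, the endotoxin coreceptor, with 19, 5.33, 11.4 and 2.09 TPM against 21.8 to 31.2 TPM (-1.69 ± 0.42 (SE), adjusted p = 0.0118), and the lysosomal glycoprotein Cd68, with 47.5, 13.2, 31.6 and 1.86 TPM against 41.3 to 68.1 TPM (-1.84 ± 0.60 (SE), adjusted p = 0.0349, and without HP_cisplatin 4, -1.01, adjusted p = 0.0348; lost without HP_cisplatin 2 or BL_cisplatin 1, 2 or 3, adjusted p up to 0.0831). Csf1r, the receptor that defines macrophages, had 3.15, 7.83, 5.46 and 12 TPM against 3.27 to 5.85 TPM (0.59 ± 0.26 (SE), adjusted p = 0.1, and without HP_cisplatin 4, 0.32, adjusted p = 0.307). The summed TPM of Adgre1, Csf1r and Cd68 was 15.3 to 51.2 in HP_cisplatin and 48.5 to 71.8 in BL_cisplatin. In BL_cisplatin most of this sum was Cd68, so it largely repeats the fall of that gene. Csf1r did not fall, and the median log2 difference of the 11 genes was 0.19. The part of macrophage number in the falls of inflammatory genes was not tested. No antigen presentation gene of 14 was called in the fit over all libraries or without HP_cisplatin 4, and 5 rose without HP_cisplatin 1 or BL_cisplatin 4. Of 15 immediate early genes 7 fell and 0 rose, with 5 falls without HP_cisplatin 4, 14 without HP_cisplatin 1 and 2 without HP_cisplatin 2. Among them were Klf6 (58.2, 24.9, 38 and 9.9 TPM against 61.1 to 72.8 TPM; -1.26 ± 0.35 (SE), adjusted p = 0.0181, and without HP_cisplatin 4, -0.80, adjusted p = 0.0167) and Fosl2 (14.2, 7.23, 9.98 and 2.02 TPM against 16.9 to 18.1 TPM; -1.22 ± 0.34 (SE), adjusted p = 0.0193, and without HP_cisplatin 4, -0.74, adjusted p = 0.0122), both transcription factors induced by stress. Without HP_cisplatin 2 the adjusted p of Klf6 was 0.0503.

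Proliferation and matrix genes fell as well. Of 13 cell cycle genes 12 fell and 0 rose, with a median of -0.50, and 9 of the 13 lay below without overlap. Without HP_cisplatin 4 there were 6 falls, without HP_cisplatin 2 there were 4 and with group weights 2. Pcna, the sliding clamp of DNA replication and repair, had 16.1, 13, 14.1 and 9.61 TPM against 17.9, 17.6, 18.5 and 18.1 TPM (-0.44 ± 0.11 (SE), adjusted p = 0.0104), and Rrm2, a ribonucleotide reductase subunit, 6.05, 1.6, 3.72 and 1.56 TPM against 6.28 to 7.6 TPM (-1.06 ± 0.25 (SE), adjusted p = 0.0109). HP_cisplatin 2 and 4 were lowest for Rrm2. Replication histones were among the widest gaps: Hist1h3c was at 7.52, 2.25, 5.04 and 4.78 TPM against 12.2, 14.8, 13.3 and 12.8 TPM (-1.35 ± 0.21 (SE), adjusted p = 0.00366) and Hist1h2ad at 2.35, 1.13, 1.55 and 1.65 TPM against 4.75, 5.54, 5.19 and 5.26 TPM (-1.23 ± 0.17 (SE), adjusted p = 0.00298). Histone genes of this cluster are near-identical, so reads may be shared among them. Of 16 matrix genes 9 fell and 0 rose, and the 9 falls were also counted without HP_cisplatin 4. There were 5 falls without HP_cisplatin 2 and 4 with group weights. Col3a1, a fibrillar collagen, had 11.2, 3.57, 4.2 and 6.65 TPM against 15.2, 17.1, 13.6 and 20 TPM (-1.33 ± 0.26 (SE), adjusted p = 0.00549; without HP_cisplatin 4, -1.39, adjusted p = 0.0103), with HP_cisplatin 2 and 3 in the vehicle range of 2.73 to 4.76 TPM. Col4a2, a basement membrane collagen, had 65, 49.6, 54.9 and 38.9 TPM against 76.2 to 81.9 TPM (-0.60 ± 0.12 (SE), adjusted p = 0.00572).

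Genes of the oxygen response itself moved both ways. Of 11 HIF subunits and oxygen sensors 0 rose and 1 fell, and 0 fell without HP_cisplatin 4. Hif1a was at 30.5, 22.7, 27.9 and 18 TPM against 30.8, 33.1, 32.1 and 31.2 TPM (-0.37 ± 0.12 (SE), adjusted p = 0.0366, and without HP_cisplatin 4, -0.24, adjusted p = 0.0871), a difference that passed in the fits without HP_cisplatin 1 or 3 and in none of the other 6 that leave out a library (adjusted p up to 0.094). Of 24 HIF targets 7 rose and 6 fell, with a median of 0.0013; after rescaling without the most abundant genes 6 rose and 6 fell with a median of -0.096, and 4 rose and 2 fell without HP_cisplatin 4 and 3 rose and 2 fell without BL_cisplatin 2. Car9 (chr4:43506966-43513729), carbonic anhydrase 9 and a standard HIF target, was at 1.23, 4.62, 2.63 and 2.37 TPM after hypoxia, 0.837, 0.951, 0.806 and 0.833 TPM after cisplatin alone and 3.3 to 5.16 TPM after vehicle (0.92 ± 0.21 (SE), adjusted p = 0.00896; without HP_cisplatin 4, 0.95, adjusted p = 0.0173). The 4 hypoxia libraries were above those of cisplatin alone, and HP_cisplatin 2 alone of them reached the vehicle range. Car12, another carbonic anhydrase, had 23, 34.4, 32.1 and 48.5 TPM against 16.7 to 21.6 TPM (0.77 ± 0.17 (SE), adjusted p = 0.00771), and Ak4, a mitochondrial adenylate kinase, 13.7, 44, 33.5 and 104 TPM against 8.54 to 11.6 TPM and 105 to 119 TPM after vehicle (1.81 ± 0.39 (SE), adjusted p = 0.00749). Vegfa, the main angiogenic factor, had 21.7, 33.9, 27.1 and 48.5 TPM against 21.5 to 25.2 TPM (0.45 ± 0.17 (SE), adjusted p = 0.0548, and without HP_cisplatin 4, 0.25, adjusted p = 0.127), so its difference did not pass, and HP_cisplatin 4 was at the level of vehicle, 47 to 53.4 TPM. Lox, a HIF target that crosslinks collagen, fell: 2.18, 1.32, 1.21 and 0.814 TPM against 3.35, 5.27, 5.15 and 4.43 TPM, without overlap (-1.24 ± 0.17 (SE), adjusted p = 0.00275; without HP_cisplatin 4, -1.12, adjusted p = 0.0049). Epo, the hormone erythropoietin, was under the filter. Its TPM was listed at 0 in HP_cisplatin 1 to 3 and in all 4 libraries of cisplatin alone, and it was 0.387 in HP_cisplatin 4 and 0.0314 to 0.745 after vehicle.

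Glycolysis, some of whose genes HIF induces, had 7 rises and 2 falls among 17 genes, and 7 and 1 without HP_cisplatin 4. Ldhb, the lactate dehydrogenase subunit of oxidative tissue, had 224, 401, 321 and 448 TPM against 158 to 229.8 TPM (0.90 ± 0.18 (SE), adjusted p = 0.00569). Pdk1, the kinase that shuts pyruvate dehydrogenase and a HIF target, had 2.66, 6.19, 6.67 and 6.27 TPM against 1.92 to 3.32 TPM and 5.42 to 7.76 TPM after vehicle (0.86 ± 0.20 (SE), adjusted p = 0.00948). HP_cisplatin 2, 3 and 4 were together at the level of vehicle for Pdk1 and HP_cisplatin 1 was apart. Car9, Car12, Ak4, Ldhb and Pdk1 were all lower after cisplatin alone than in every vehicle library, and the mean of the hypoxia group stayed below the vehicle mean for each.

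**Figure D4:**
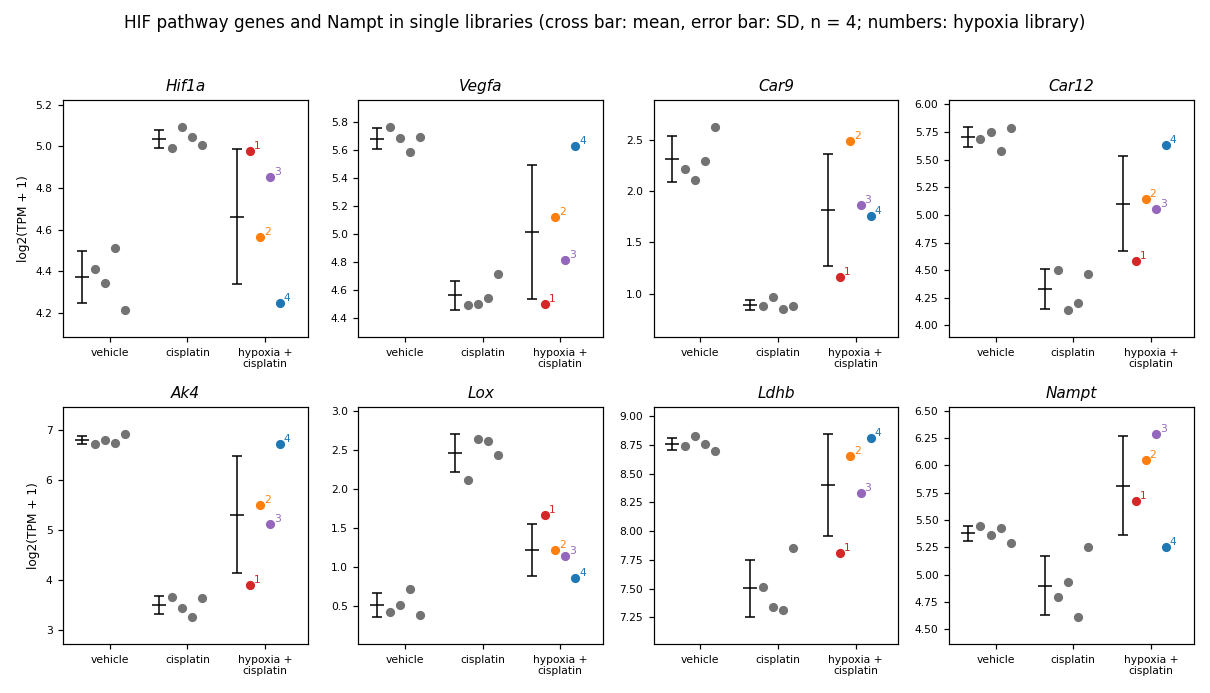
log2(TPM + 1) of 7 genes of the HIF pathway or glycolysis and of Nampt in the libraries of vehicle, cisplatin alone, and hypoxia and cisplatin; points are libraries, numbers mark HP_cisplatin 1 to 4, and bars are the mean and SD (n = 4). Car9, Car12 and Ak4 are above cisplatin alone in all 4 hypoxia libraries, Lox and Hif1a are below it, and Nampt is above both other groups in HP_cisplatin 1 to 3.

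Few genes had all hypoxia libraries outside every other library. All 4 lay above all 12 others for 8 genes (0.0533% of those tested) and below them for 4 (0.0266%). Being outside every library was not itself tested, and how many genes any 4 of the 16 libraries would give was not counted. These counts and genes are therefore descriptions only. Cd36, the fatty acid receptor and transporter, was at 162, 173, 222 and 153 TPM, against 113 to 145 TPM after cisplatin alone, 96.9 to 147 TPM after vehicle and 109 to 151 TPM after calorie restriction. Decr1, a mitochondrial reductase needed to oxidise polyunsaturated fatty acids, had 56.8, 70.6, 76 and 51.7 TPM against 43.3 to 51.3 TPM after cisplatin alone and 42.4 to 48.9 TPM after vehicle. In both the widest margin was that of HP_cisplatin 3 and the narrowest that of HP_cisplatin 4. For Cd36 that library had 153 TPM against 151 TPM in the highest other library. For Decr1 it had 51.7 against 51.3 TPM. Against cisplatin alone Cd36 rose by 0.49 ± 0.15 (SE), adjusted p = 0.0288 and Decr1 by 0.40 ± 0.11 (SE), adjusted p = 0.02. With group weights the adjusted p was 0.208 and 0.0815, and both calls were lost without HP_cisplatin 2 or BL_cisplatin 2, that of Cd36 also without HP_cisplatin 3 or BL_cisplatin 3 or 4 (adjusted p up to 0.0762 and 0.0632). After rescaling without the most abundant genes Cd36 had an adjusted p of 0.0521.

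Others above all libraries included Mrpl14, a mitochondrial ribosomal protein (17.4, 20.2, 22.2 and 16.9 TPM against 14.7 to 16.3 TPM after vehicle; 0.45 ± 0.078 (SE), adjusted p = 0.00432), the riboflavin transporter Slc52a3 (0.41 ± 0.11 (SE), adjusted p = 0.0151), Bloc1s6 (0.13 ± 0.06 (SE), adjusted p = 0.102) and Tmem102 (0.11 ± 0.068 (SE), adjusted p = 0.228). Those below were Fam50a (-0.22 ± 0.054 (SE), adjusted p = 0.0106), the chromatin remodelling factor Bptf (-0.17 ± 0.059 (SE), adjusted p = 0.0458, and without HP_cisplatin 4, -0.16, adjusted p = 0.081), Trrap, a scaffold of histone acetyltransferases (-0.11 ± 0.066 (SE), adjusted p = 0.234), and the activin receptor Acvr2b (-0.19 ± 0.095 (SE), adjusted p = 0.144). By limma the differences of Bloc1s6, Tmem102, Trrap and Acvr2b from cisplatin alone did not pass. After rescaling without the most abundant genes those of Trrap and Acvr2b did pass, with adjusted p-values of 0.0209 and 0.028. The call of Bptf held without HP_cisplatin 1 and was lost in the other 7 fits that leave out a library (adjusted p up to 0.106). With CR_cisplatin 4, the library closest to HP_cisplatin 4, left out of the others, 21 genes were outside, 14 above and 7 below.

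Other lists had calls in shares below or above the 29.4% of all genes. Ribosomal protein genes of the cytosol had 3 falls and 0 rises among 30, with 1 fall without HP_cisplatin 4, or without BL_cisplatin 1 or 3, but 25 without HP_cisplatin 1. Among the 3 was Rps16 at 89, 61.4, 77.7 and 40.2 TPM against 98.9 to 109 TPM (-0.69 ± 0.19 (SE), adjusted p = 0.0166). After rescaling without the most abundant genes 11 fell. Of 26 proteasome genes 1 rose and 3 fell, and 8 fell after that rescaling. Without HP_cisplatin 4 there were 2 rises and 1 fall, and without HP_cisplatin 1 there were 1 and 7. Circadian genes had 5 rises and 2 falls among 16, with 4 and 2 without HP_cisplatin 4 and 2 and 2 without HP_cisplatin 2, led by Hlf (1.80 ± 0.39 (SE), adjusted p = 0.00749), a factor with circadian rhythm in kidney. Of 6 red blood cell genes 0 were called, also without HP_cisplatin 4; Hbb-bs, beta globin, was at 5.82, 0.273, 0.491 and 13.5 TPM against 0.0619 to 0.252 TPM, so that the groups did not overlap while the spread was wide (1.69 ± 0.80 (SE), adjusted p = 0.122, and without HP_cisplatin 4, 1.03, adjusted p = 0.348). Genes of the integrated stress and endoplasmic reticulum response had 4 rises and 5 falls among 16. That became 1 and 2 without HP_cisplatin 4, 1 and 1 without BL_cisplatin 3, and 7 and 7 without HP_cisplatin 1. A member is the transcription factor Atf4 at 65.8, 43.2, 45.3 and 39.3 TPM against 63.8 to 71 TPM (-0.50 ± 0.12 (SE), adjusted p = 0.0105).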

How the data were processed

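Total RNA of mouse kidney, depleted of ribosomal RNA, was measured in 16 libraries, 4 per group. The deposited file, made by the authors, gives TPM per gene and library, each library summing to 1000000; the unit was read from that sum and from values that fall on whole reads given the exon length (83.1 to 84.3% of genes under 200 reads within 0.01 reads). The submitters' processing notes name STAR 2.5, Subread 1.5 and featureCounts with builds mm10 and GRCm38; their settings, and whether strand was used, are not given in the sources used here. Of 46078 genes, 45229 IDs were found in GENCODE M21, the source of positions.

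The 15014 genes reaching 1 TPM in 4 or more libraries were put on log2(TPM + 1), a scale that understates the change of low genes; fold changes and standard errors are on it. Limma 3.58.1 in R 4.3.3 (statmod 1.5.0; trend and robust) used all 16 libraries and 1 coefficient per group; the contrast was HP_cisplatin minus BL_cisplatin, 2-sided, with Benjamini-Hochberg adjustment over all genes tested. The script was tested on simulated data. Alternatives were a pseudocount of 0.1, no filter or a filter on 8 libraries, the 2 groups alone, group weights, the title code as a term, rescaling after dropping mitochondrial and red blood cell genes and the top 10 of the rest by abundance, and each library left out. Fits of the 2 groups alone without each library in turn, and 2 further settings for the genes outside all other libraries, were added after seeing the data. For 4 libraries against 4, the smallest exact 2-sided permutation p is 0.0286, which each gene free of overlap reaches.

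The comparison, the gene lists and the tests were chosen with earlier results of these data known. Named genes are the 10 largest rises and 10 largest falls among called genes free of overlap with a mean log2(TPM + 1) of at least 1, the 8 widest gaps each way to BL_cisplatin, the 6 widest each way to all other libraries, 8 fixed genes, up to 4 members of each list with the smallest adjusted p, and the 8 genes of largest SD in HP_cisplatin; unnamed models, pseudogenes, small RNAs and sex-linked genes were passed over, and the text names a subset. Lrp2, Adipoq and Plin1 are named as cell type markers. A few genes that the rule gives are not reported here. Replicates were numbered by accession order and the numbers pair nothing. The least squares position of a library on the line from vehicle to BL_cisplatin leaves that library out of its group mean.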

Additional observations from a re-analysis of the deposited data

Results flagged for a closer look

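In groups of 4 libraries, the gap of the highest or lowest library to its neighbour was compared with the range of the group (Dixon's ratio) and set against its 95% critical value. Of 342 groups checked 14 exceeded it, and chance alone would give about 1 in 20. In the hypoxia group the ratio was 0.975 for Gc, the vitamin D binding protein, which was at 238, 224, 215 and 3.27 TPM in HP_cisplatin 1 to 4, so that HP_cisplatin 4 was apart, just below the vehicle range of 3.49 to 8.6 TPM (mean difference from cisplatin alone -1.43 ± 0.95 (SE), adjusted p = 0.26, and without HP_cisplatin 4, 0.0056, adjusted p = 0.99, by limma). The ratio was 0.913 for Pdk1 and 0.861 for Slc37a4, with HP_cisplatin 1 apart in both, and 0.865 for the score of intercalated cell genes.

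In cisplatin alone the fat markers stood out: 0.971 for Adipoq, 0.972 for Plin1 and 0.988 for Ucp1, the uncoupling protein of brown fat, each because of BL_cisplatin 4. Ucp1 was at 0.0826, 0.13, 0.143 and 107 TPM in BL_cisplatin 1 to 4 and at 0.0154, 23.8, 0.0484 and 35.7 TPM in HP_cisplatin 1 to 4. Also in cisplatin alone, the ratio was 0.830 for Amn, 0.860 for Cdh6, 0.835 for Bptf and 0.857 for Trrap. For scores of lists in that group it was 0.866 for macrophage and monocyte genes, 0.988 for circadian clock genes and 0.835 for antigen presentation. The cause of these single-library deviations was not tested.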

How the results depend on the processing

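The number of genes called was 4420 in the fit over all 16 libraries. It was 0 in the 2 groups alone, 0 with the title code as a term (1564 at an unadjusted p under 0.05) and 2068 with group weights; in the 2 groups alone without HP_cisplatin 4 it was 1, without HP_cisplatin 1 it was 4214 and without any of the other 6 it was 0 (2694 to 3881 at an unadjusted p under 0.05). Leaving out 1 library gave 2210 to 7156. The title code is shared by no library of both groups, so that fit rests on CR_cisplatin 1. Rescaling after dropping mitochondrial, red blood cell and the top 10 other genes gave 5739 calls; the share of rises among calls moved from 55.5 to 35.0% and the median of all genes from -0.017 to -0.11, and small differences are to be read against these medians. Genes free of overlap numbered 2325, and 2559 to 6336 with 1 library left out. Genes outside all 12 others numbered 12, and 21 without CR_cisplatin 4.

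With 1 library left out, the median of the macrophage list was 0.056 to 0.52, of ketone body genes 0.28 to 0.87, of the stress response list -0.057 to 0.089 and of cisplatin and copper transporters -0.12 to 0.19. The stress response median was -0.10 after rescaling and that of red blood cell genes 2.501 with a pseudocount of 0.1. Of 127 genes checked, 108 were called; of these, 93 were called with group weights, 106 after rescaling, 98 without HP_cisplatin 4, 86 without HP_cisplatin 2 and 0 in the 2 groups alone. Directions turned for Gc, with -1.93 to 0.0056 when 1 library was left out (0.0056 without HP_cisplatin 4, also in the 2 groups alone), for Ucp1, with -0.24 to 2.32 (-0.047 without HP_cisplatin 2 and -0.24 without HP_cisplatin 4, each in both fits, -0.96 with the title code) and, with the title code, for Adipoq (-0.25) and Plin1 (-0.65). The cause was not tested. No paired analysis was possible because the labels number no replicates. Genes near 1 TPM rest on few reads where transcripts are short, which limits their precision.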

Other observations

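HP_cisplatin 4 and CR_cisplatin 4 also had near-equal levels of genes that vary widely among the other libraries. Adipoq was at 14.2 and 14.9 TPM in them, Plin1 at 8.67 and 8.87, Ucp1 at 35.7 and 37.4, Hbb-bs at 13.5 and 14.3. Over the other 14 libraries Adipoq ran from 0.0533 to 20.3 TPM. Inmt, indolethylamine N-methyltransferase, was at 2.92, 7.75, 2.62 and 232 TPM in HP_cisplatin 1 to 4, against 3.46 to 4.41 TPM after cisplatin alone, 325 to 563 TPM after vehicle and 236 TPM in CR_cisplatin 4.

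Of 15 genes of tight junctions and epithelial adhesion 2 rose and 6 fell by limma, and 1 rose and 4 fell without HP_cisplatin 4. Cldn2, the leaky claudin of the proximal tubule, had 72.9, 149, 119 and 123 TPM against 44.5 to 75.4 TPM (0.97 ± 0.18 (SE), adjusted p = 0.00526), and Cldn7, a claudin of the distal nephron, 10.8, 5.56, 7.97 and 3.43 TPM against 12.5 to 14.6 TPM (-0.98 ± 0.21 (SE), adjusted p = 0.00789).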
